A study of Drosophila melanogaster with 51 samples.

Results

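Small heat shock genes of the 67B cluster on chromosome arm 3L are described here (Hsp22, Hsp23, Hsp26, Hsp27, Hsp67Ba and Hsp67Bc). Hsp83 and the gene of the heat shock factor, Hsf, are included with them. All were chosen by name, with earlier results of these data known, and they are 8 of the 13968 protein-coding genes annotated on 7 chromosome arms. The data are open regions found by ATAC-seq, in which a transposase inserts adapters into exposed DNA, in basal Kc167 cells of Drosophila melanogaster. Kc167 is a line derived from fly embryos. The 3 basal libraries are labelled as having received no copper, the study describes these cells as untransfected, and the growth protocol gives a culture temperature of 25 °C and names no heat shock. They form 1 group and are the only one used. The other 48 of the 51 libraries, from stable lines with copper-inducible Hox, Hth or Gcm constructs, were not analysed here, so no conditions were compared.

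The deposited list holds 16118 regions, each called in at least 2 of the 3 libraries, with chromosome positions and neither a score nor a read number. A gene is called open when a region touches the 250 bp on either side of any of its annotated transcription start sites (TSSs), and closed otherwise, which says only that no region was called there. The list does not show how deeply a region was covered or how it differed between libraries, so values stand without a replicate error and no test over libraries could be made. The labelled cell type was checked by marker genes. Of 12 hemocyte (fly blood cell) genes 9 were open, the widest TSS regions being at the GATA factor gene srp (844 bp), at ush (773 bp), whose product binds GATA factors, and at Col4a1 (712 bp), a collagen gene, while NimC1, He and Sr-CI were closed. Of 6 neuronal, 6 muscle and 6 fat body genes, 1 each was open (elav, Mlc2 and apolpp). The 95% Wilson interval of the share is 46.8 to 91.1% for the hemocyte list and 3.01 to 56.4% for each of the others, and each interval contains the 47.8% of all protein-coding genes that were open, so the check is a coarse one.

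Small heat shock proteins share the alpha-crystallin domain and hold unfolding proteins in a state from which other chaperones can refold them. In flies Hsp22 is mitochondrial and Hsp27 largely nuclear, and several genes of the cluster also respond to the moulting hormone ecdysone. Hsp83 is the fly Hsp90, a chaperone made in unstressed cells and induced further by heat, and Hsf is the factor that trimerises on heat shock and binds alternating GAA and TTC units. Promoters of heat shock genes in flies are known for GAGA factor, which binds GAGAG, and for a polymerase that pauses just downstream of the TSS before any stress.

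Of the 8 genes, 7 were open (87.5%, 95% Wilson interval 52.9 to 97.8%), against 47.8% of all protein-coding genes (46.9 to 48.6%). Hsp22, Hsp23, Hsp26, Hsp27, Hsp67Bc, Hsp83 and Hsf were open and Hsp67Ba was closed. By TSS, 10 of 11 were open, against 46.1% of the 19630 TSSs of all protein-coding genes. The intervals cover counting error only, and the genes are not independent, since Hsp22 and Hsp67Bc share a region. Genes with more TSSs have more chances to be open: 39.8% of genes with 1 TSS and 64.2% of genes with 2 TSSs were open. Of the members, Hsp22, Hsp26 and Hsp83 have 2 annotated TSSs each and the other 5 have 1.

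The sequences that carry these regions come from the RefSeq Release 6 genome (dm6), and 4 stretches are shown. All are read 5′ to 3′ in the direction of the gene. Capitals mark 3 alternating GAA and TTC units, 2 bases apart, with at most 1 mismatch (called a heat shock element below), and GAGAG or its complement CTCTC. The Hsp26 stretch is chr3L:9377451-9377750 on the minus strand, and spans the 47-bp gap between the gene's 2 open regions. The Hsp23 stretch is chr3L:9381467-9381766 on the plus strand, and begins 18 bp before the open region. The Hsp27 stretch is chr3L:9383702-9383851 on the plus strand, the end of the widest region of the cluster. The Hsp67Ba stretch is chr3L:9379535-9379784 on the minus strand, the 250 bases before its TSS, which hold neither motif. The others lie at different distances from the first TSS (Hsp26 -323 to -24, Hsp23 -415 to -116, Hsp27 -361 to -212). The stretches thus do not compare like positions. From 250 bp before to 50 bp after the TSS, the open genes Hsp27, Hsp67Bc and Hsf held neither motif either. All 4 stretches lie outside annotated UTRs.
Hsp26: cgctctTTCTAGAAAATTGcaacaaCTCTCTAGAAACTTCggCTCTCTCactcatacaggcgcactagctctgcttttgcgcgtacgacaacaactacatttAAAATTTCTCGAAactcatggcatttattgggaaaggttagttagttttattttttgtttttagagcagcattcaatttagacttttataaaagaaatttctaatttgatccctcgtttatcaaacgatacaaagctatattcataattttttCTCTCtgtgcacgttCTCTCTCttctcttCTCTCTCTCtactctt
Hsp23: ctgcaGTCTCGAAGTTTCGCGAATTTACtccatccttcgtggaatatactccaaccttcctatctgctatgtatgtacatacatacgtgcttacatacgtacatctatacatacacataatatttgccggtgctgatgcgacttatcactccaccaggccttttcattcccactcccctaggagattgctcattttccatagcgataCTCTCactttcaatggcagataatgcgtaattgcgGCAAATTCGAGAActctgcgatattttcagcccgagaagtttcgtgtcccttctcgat
Hsp27: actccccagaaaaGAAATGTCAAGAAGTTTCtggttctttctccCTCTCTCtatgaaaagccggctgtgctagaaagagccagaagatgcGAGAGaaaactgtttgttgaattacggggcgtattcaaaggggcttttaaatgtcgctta
Hsp67Ba: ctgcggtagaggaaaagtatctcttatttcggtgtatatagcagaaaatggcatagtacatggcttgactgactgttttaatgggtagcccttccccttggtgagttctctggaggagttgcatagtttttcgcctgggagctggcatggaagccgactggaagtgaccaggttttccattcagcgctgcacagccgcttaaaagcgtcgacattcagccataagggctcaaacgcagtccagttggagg

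For Hsp22 and Hsp83 the bases before the second TSS are annotated as 5′ UTR of the longer transcript, so only the element itself is shown for each. The Hsp22 site is chr3L:9373902-9373931 and the Hsp83 site chr3L:3193137-3193166, both on the plus strand and inside open regions. In Hsp22 the element runs into a GAGAGAG stretch. In Hsp83 4 overlapping matches form a run of 28 bases.
Hsp22: agggcgaaGAAAATTCGAGAGAGtgccggt
Hsp83: aGAAGCCTCTAGAAGTTTCTAGAGACTTCc

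The cluster runs from 9371511 to 9385694 on arm 3L (14184 bp) and holds 10 annotated genes. It held 8 open regions with 2443 bp in all, so that 17.2% of the cluster was open, against 3.45% of arm 3L (4.99-fold). Region density was 5.64 per 10 kb in the cluster and 1.13 per 10 kb on the arm. TSS windows made up 28.2% of the cluster and 5.81% of the arm. Within these windows 34.7% of bases were open in the cluster and 21.4% on the arm, and outside them 10.4% and 2.34%. The cluster was thus above the arm both inside and outside the windows. All 8 regions touched the TSS window of a member, so the open bases outside the windows are parts of regions at TSSs. They do not show openness of the cluster away from its promoters. The nearest region before the first one of the cluster lay 5416 bp away and the nearest after the last lay 14803 bp away.

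**Figure D1:**
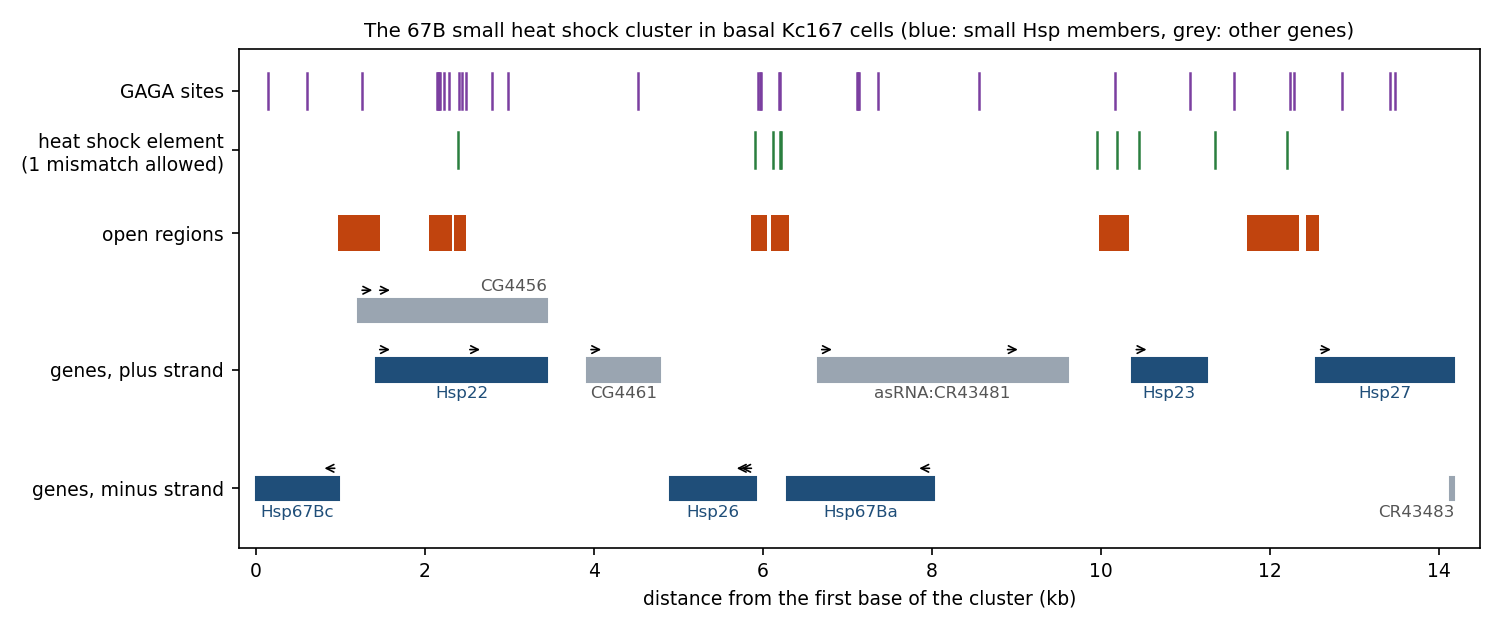
Map of the 67B cluster, with distance from its first base in kb on the x axis; rows show, from the bottom, genes on the minus and plus strands (arrows mark TSSs), open regions, heat shock elements with at most 1 mismatch, and GAGAG sites. The 8 regions lie in 4 groups, at Hsp67Bc and Hsp22, at Hsp26, at Hsp23 and at Hsp27, and none lies at the TSSs of CG4461, Hsp67Ba, asRNA:CR43481 or CR43483.

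All 8 regions of the cluster touched the TSS window of a member. Of their bases, 1650 were intergenic, 760 in 5′ UTRs, 22 in a 3′ UTR and 11 in coding sequence, which leaves 99.5% outside coding sequence. By class, 50.8% of the intergenic bases of the cluster and 40.7% of its 5′ UTR bases were open, against 0.211% of its coding bases. Most of the open 5′ UTR bases (260, 270 and 147) lay in the 3 regions at Hsp22. The longest closed stretch between regions, 3661 bp, holds all but the last 22 bp of Hsp67Ba and the whole antisense RNA gene asRNA:CR43481. The next longest, 3367 bp, holds the body of Hsp22, CG4461 and most of Hsp26. CG4461, which encodes another small heat shock protein, was closed, as were asRNA:CR43481 and the pseudogene CR43483 at the end of the cluster.

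Hsp67Bc and Hsp22 are transcribed away from each other and shared 1 region of 495 bp (chr3L:9372491-9372985). It ran from -488 to +6 of the Hsp67Bc TSS and from -440 to +54 of the first Hsp22 TSS, with the TSS base as 0 and upstream negative. It holds both TSSs and also those of CG4456 (also known as Hsp67Bb), and 224 of its bases are intergenic. The first Hsp22 TSS is annotated as a TSS of CG4456 too. Of all 8556 regions at TSSs, 22.8% touch windows of more than 1 gene. This was the single member region that did so. Hsp67Bc, a small heat shock protein that acts with the cochaperone Starvin, had 257 of the 501 bases of its window open, 250 of them upstream of the TSS.

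Hsp22 had 2 further regions at its second TSS, 1066 bp downstream of the first. They were 270 bp (-437 to -168) and 147 bp (-141 to +5) wide and lay 26 bp apart, both inside the 5′ UTR of the longer transcript. At this TSS 230 bases of the window were open, 224 of them upstream and 5 downstream, and at the first TSS 305 bases, 250 of them upstream and 54 downstream. The annotated start of the shorter transcript thus sat at the downstream edge of an open region.

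Hsp26, transcribed from the minus strand with TSSs at 9377427 and 9377375, had a 192-bp region over both (-134 to +57 of the first, -186 to +5 of the second). A second region of 215 bp lay upstream (-396 to -182 of the first TSS), 47 bp from it. The last 22 bp of the upstream region reach the 3′ UTR of Hsp67Ba. With 261 and 209 open bases in the windows of its first and second TSS, Hsp26 was near the median of all open TSSs, 252 bases (quartiles 183 and 337).

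Hsp23 had 1 region of 355 bp (chr3L:9381485-9381839), wholly upstream (-397 to -43). The TSS base itself was not in it, and all 208 open bases of the window were upstream. Hsp27 had the widest region of the members, 616 bp (chr3L:9383236-9383851, -827 to -212), of which only 39 bp reach into the TSS window. At the TSS itself lay a region of 153 bp (-128 to +24), and 83 bp separated them. The 616-bp region was wider than or as wide as 93.2% of all TSS regions, and the 153-bp region than or as 19.8%.

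Hsp67Ba was the closed member. Its nearest region ended 1711 bp from its TSS at 9379534 and is the upstream region of Hsp26, beyond the other end of the gene. All 50-base words of its TSS window occur once in the genome.

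Hsp83, on the same arm far from the cluster, has TSSs at 3192969 and 3193216 and had 1 region of 209 bp between them (chr3L:3193007-3193215). It ran from +38 to +246 of the first TSS and from -209 to -1 of the second, ending on the last base before it. All 209 bp are annotated as 5′ UTR of the longer transcript, and neither TSS base was inside. A further region of 137 bp lay at the neighbouring gene CG14965, from -555 to -419 of the first TSS. In the window of the second TSS 93.2% of bases start a 50-base word found once, the only member TSS below 100%.

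Hsf is the one member on another arm, 2R, with its TSS at 18134634 on the minus strand. A region of 180 bp covered the TSS (chr2R:18134564-18134743, reaching +70) and a second of 478 bp lay downstream (+216 to +693), 145 bp away, with 35 bp in the TSS window, 298 bp in introns and 140 bp in coding sequence. Another of 200 bp followed in an intron (+799 to +998). Of its 215 open bases in the window, nearly as many lay downstream of the TSS as upstream, while each small heat shock TSS with a region had at least 167 open bases upstream and at most 57 downstream.

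**Figure D2:**
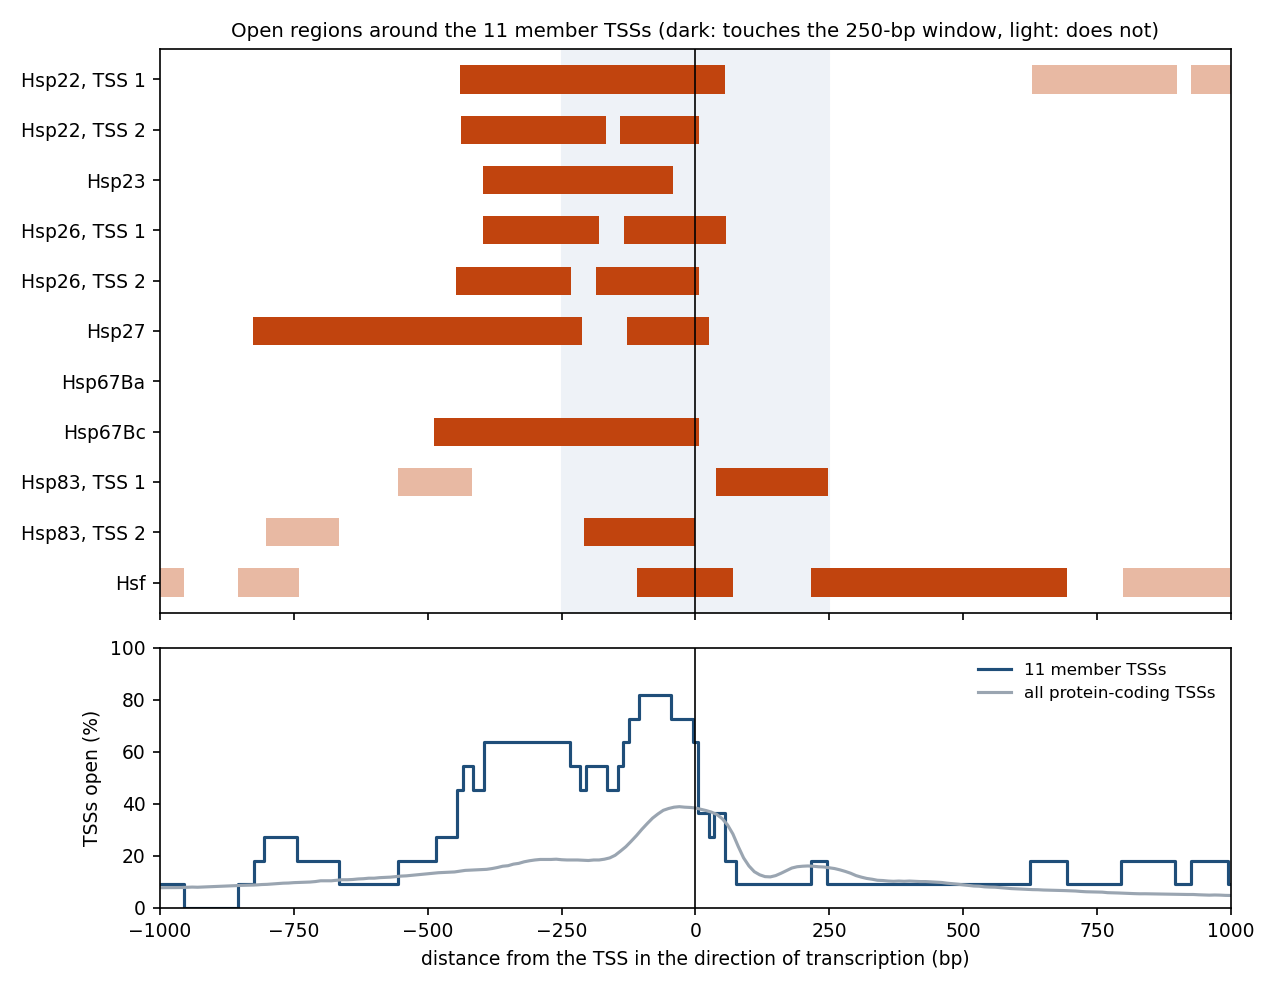
Top, open regions around the 11 member TSSs, with distance from the TSS in bp along the direction of transcription on the x axis (shaded, the 250 bp on either side); bottom, the percentage of TSSs open at each distance for the 11 member TSSs and for all protein-coding TSSs. At -100 bp 9 of 11 member TSSs were open, against 30.2% of all TSSs, and at +100 bp 1 of 11, against 16.1%.

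Regions of several members stopped close to an annotated TSS. Of the 9 member TSSs with a region that began at or upstream of them, the last open base lay between -43 (Hsp23) and +70 (Hsf), with a median of +6.00. It lay within 10 bp of the TSS at 4 of them: the second Hsp22 TSS (+5), the second Hsp26 TSS (+5), Hsp67Bc (+6) and the second Hsp83 TSS (-1). Over the 8674 such TSSs of all protein-coding genes the median was +79.0 (lower quartile +51.0), and 2.50% lay within 10 bp. In all, 60.3% of them ended further downstream than the last edge at Hsf. The result depended on the TSS chosen. A single Hsp26 region counted at both Hsp26 TSSs, ending at +57 of the first and +5 of the second. At the first Hsp22 TSS the last open base lay at +54, and no region in the window of the first Hsp83 TSS began upstream of it. With the most upstream TSS of each gene only, Hsp67Bc alone lay within 10 bp. Regions were called from reads extended to 100 bp and then joined over libraries. Their edges, and the short gaps between them, are thus not exact to a few bases. At the TSS base itself 5 of 8 members (Hsp22, Hsp26, Hsp27, Hsp67Bc and Hsf) were open, against 43.3% of all protein-coding genes. This measure was added after the positions had been seen.

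In median width the member regions were near all TSS regions. The 11 member TSS regions spanned 147 to 616 bp (median 215 bp), and the median of all 8556 TSS regions was 212 bp (quartiles 163 and 322). Those of 355, 478, 495 and 616 bp lay above the upper quartile. By gene, 7 of 8 members had a TSS region of at least 200 bp, against 30.9% of all protein-coding genes. That share includes closed genes. Among open genes only, it was all 7 members, against 4313 of 6670. GC content was 43.1% in the member regions, against 45.0% in all TSS regions. More than 1 TSS region was found at 4 of 8 members (Hsp22, Hsp26, Hsp27 and Hsf), against 21.2% of all protein-coding genes and 44.3% of the open ones. The gaps of 26, 47 and 83 bp within the pairs of Hsp22, Hsp26 and Hsp27 are under 100 bp, as are 19.3% of the 16111 gaps between neighbouring regions (median 1635 bp). In all 3 genes the narrower region of the pair was the one at the TSS.

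**Figure D3:**
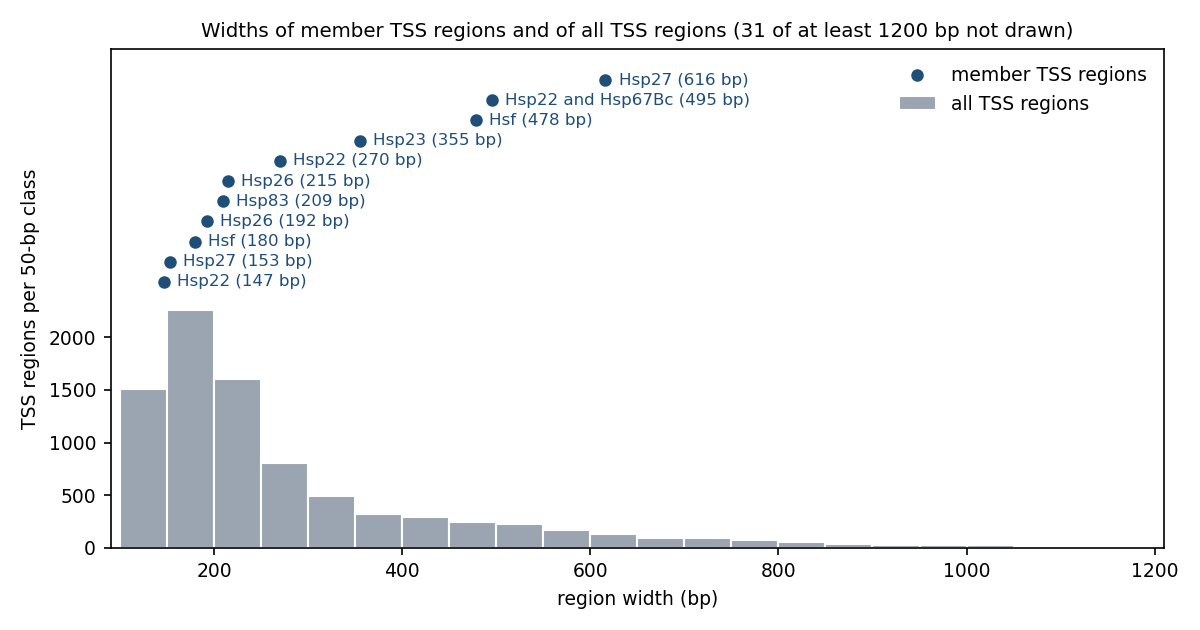
Widths of the 11 member TSS regions in bp (points, each with its gene) above the number of all TSS regions in each 50-bp class of width (bars, both on the same x axis). The members lie along the range from 147 to 616 bp, with 4 of 11 below 200 bp.

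Heat shock elements were searched on both strands, overlapping matches joined, from 250 bp before to 50 bp after each TSS. With no mismatch, 0 of 8 members held an element, against 0.566% of all protein-coding genes (79 genes). With 1 mismatch, 4 of 8 did (Hsp22, Hsp23, Hsp26 and Hsp83), against 10.6%. A match is a description of letters and not a bound site.

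Inside the members' open regions the elements with 1 mismatch were denser, a measure chosen after seeing the data. With no mismatch, 0 of the 11 regions held an element, against 36 of all 8556 TSS regions. With 1 mismatch, 6 of the 11 regions held at least 1 element, against 6.04% of all TSS regions. The density was 2.42 per kb, against 0.224 per kb. The 215-bp upstream region of Hsp26 held 3 elements, which are among the capitals of its sequence above. The 192-bp region of Hsp26, the 147-bp region of Hsp22, the 616-bp region of Hsp27 and the regions of Hsp23 and Hsp83 held 1 each. The other 5 regions, both of Hsf, the one shared by Hsp67Bc and Hsp22, the 270-bp region of Hsp22 and the 153-bp region of Hsp27, held none. In the whole cluster there were 10 elements, 7 inside open regions (2.87 per kb) and 3 outside (0.256 per kb). Of these 3, 1 lies across the edge of a region and the others lie 129 and 359 bp from one.

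The one element of the cluster with no mismatch belongs to Hsp23. It is at chr3L:9381477-9381489, -405 to -393 from the TSS, and the open region begins inside it, at 9381485. It is part of the first run of capitals in the Hsp23 sequence, where 3 overlapping matches join to 23 bases.

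GAGAG was found in 3 of 8 member promoters (Hsp22, Hsp23 and Hsp26), against 36.2% of all protein-coding genes, so its presence within 250 bp was near the background. Its number within the regions was uneven. The 270-bp region of Hsp22 held 6 separate stretches. The 147-bp region next to it held 3. The 2 regions of Hsp26 held 3 and 2, the 616-bp region of Hsp27 held 2, and the Hsp23 region and the shared region 1 each. Neither region of Hsf, the Hsp83 region nor the 153-bp region of Hsp27 held any. Over the 11 regions this was 18 stretches or 5.44 per kb, against 2.97 per kb in all TSS regions. In the cluster, 18 of 33 stretches were inside open regions (7.37 per kb) and 15 outside (1.28 per kb).

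A TATA element, TATAAA on the sense strand starting 35 to 20 bp before a TSS, was present in 6 of 8 members, against 8.53% of all protein-coding genes and 3.85% of the open ones. This window was chosen after the members' positions had been seen. The element began at -28 in Hsp22, Hsp26, Hsp27 and Hsp67Bc, at -27 in Hsp23 and at -30 in Hsp83, and none was found in Hsp67Ba and Hsf. For Hsp22, Hsp26 and Hsp83 it belongs to the second TSS. Among all protein-coding TSSs, -28 was the most frequent start too. Over all 207 TSSs with this element and a region that began upstream, the last open base had a median of +77.0, and 8.21% lay within 10 bp of the TSS.

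**Figure D4:**
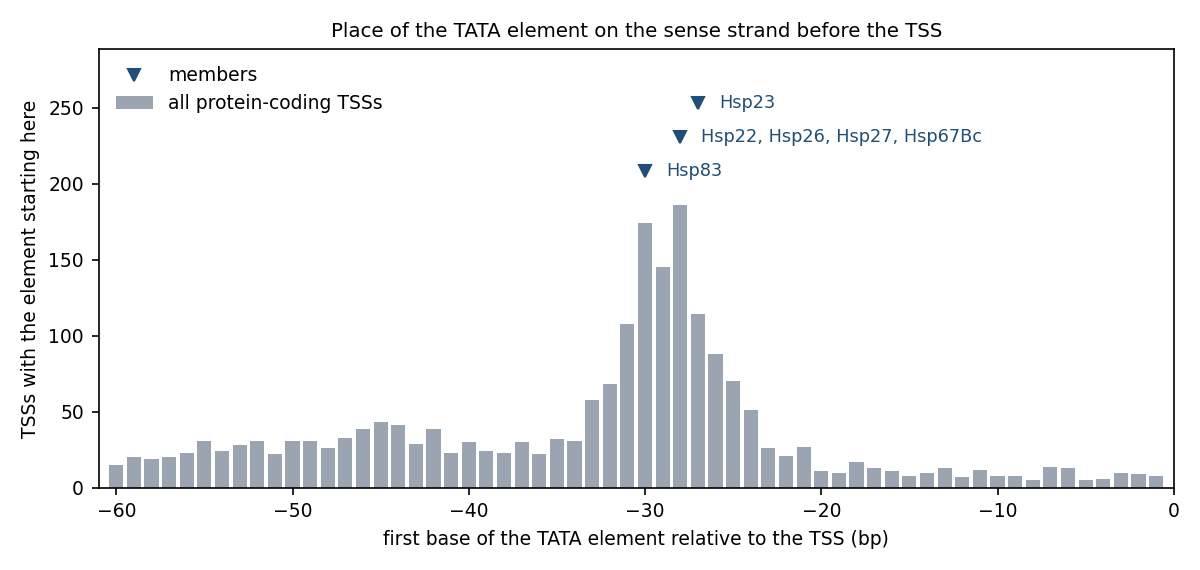
Number of protein-coding TSSs with the TATA element starting at each position from -60 to -1 bp (bars), with the starts of the 6 members that have one (triangles). The members' starts at -30, -28 and -27 fall on the peak of all TSSs.

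The bases from -35 to -6 of these 6 TSSs are shown with the element in capitals, and Hsp67Ba is added as the closed gene without it. They are, in order, chr3L:9373962-9373991, chr3L:9377381-9377410 (minus strand), chr3L:9384028-9384057, chr3L:9372503-9372532 (minus strand), chr3L:9381847-9381876, chr3L:3193181-3193210 and chr3L:9379540-9379569 (minus strand).
Hsp22: ccaagagTATAAAtagccaccggttggaca
Hsp26: cagcgggTATAAAagcagcgtcgcttgacg
Hsp27: gcgtcagTATAAAagccggcgtcaacgtcg
Hsp67Bc: ccgtctcTATAAAagggcgcagacaaaccg
Hsp23: agcggttgTATAAAtaaccggcactttcgt
Hsp83: ttttcTATAAAagcagacgcgcggcgtttg
Hsp67Ba: cagccataagggctcaaacgcagtccagtt

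In Hsp22, Hsp26, Hsp27, Hsp67Bc and Hsp83 the element lay inside an open region, and in Hsp23 it lay 16 bp beyond the end of one. Of 2 motifs of other promoter classes, the DRE (TATCGATA) was found in the promoter of Hsp83 alone, against 10.2% of all genes, and the M1BP motif (GGTCACAC) in 0 of 8, against 8.69%. Neither motif was inside any of the 11 member regions. Of all 8556 TSS regions, 837 held the DRE and 870 the M1BP motif, so an absence from 11 regions says little.

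Of 34 other heat shock and chaperone genes 16 were open (47.1%, 31.5 to 63.3%), beside the background of 47.8%. In 7 genes under 80% of the bases of a TSS window start a 50-base word found once in the genome. Without them 16 of 27 were open (59.3%, 40.7 to 75.5%). Both intervals contain the background. Of 6 other small heat shock genes 2 were open, HspB8 (523 bp) and CG4456, which is listed among them by its name and shares the 495-bp region, while l(2)efl, CG4461, CG7409 and CG13133 were closed. Of 7 inducible Hsp70 genes 1 was open, Hsp68 with a region of 261 bp over its TSS. The 6 closed ones, from Hsp70Aa to Hsp70Bc, are near-identical copies. In them 0 to 42.1% of the bases of the TSS window start a 50-base word found once, and reads with several alignments were dropped. A closed call there thus cannot be told apart from sequence that could not be read. All 7 inducible Hsp70 promoters held an element with no mismatch, and 0 of the 8 members did.

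Among the cochaperone genes and the relatives of Hsp90, 5 of 6 were open, Cdc37, Gp93, Trap1, stv and STUB1, and Stip1 was closed. Of 6 cognate Hsp70 genes 3 were open (Hsc70-3, Hsc70-4 and Hsc70-5), of 4 Hsp60 genes Hsp60A, and of 4 J protein genes DnaJ-1, Droj2 and mrj. The widest regions of the list were at lncRNA:Hsromega, the heat-inducible noncoding RNA gene (1421 bp), mrj (534 bp) and HspB8 (523 bp). The widest member region, 616 bp, was exceeded by lncRNA:Hsromega alone.

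Genes of factors known to act at heat shock promoters were open in 12 of 13 cases (92.3%, 66.7 to 98.6%), against 47.8% of all protein-coding genes. With regions of at least 200 bp, 8 of 13 were open, against 30.9%. The widest regions were at Parp1 (1588 bp), which encodes the poly(ADP-ribose) polymerase, Clamp (858 bp) and Psq (743 bp), both of which encode proteins that bind GA repeats. Trl, the gene of GAGA factor, had 366 bp and Tbp, the gene of the TATA-binding protein, was closed.

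**Figure D5:**
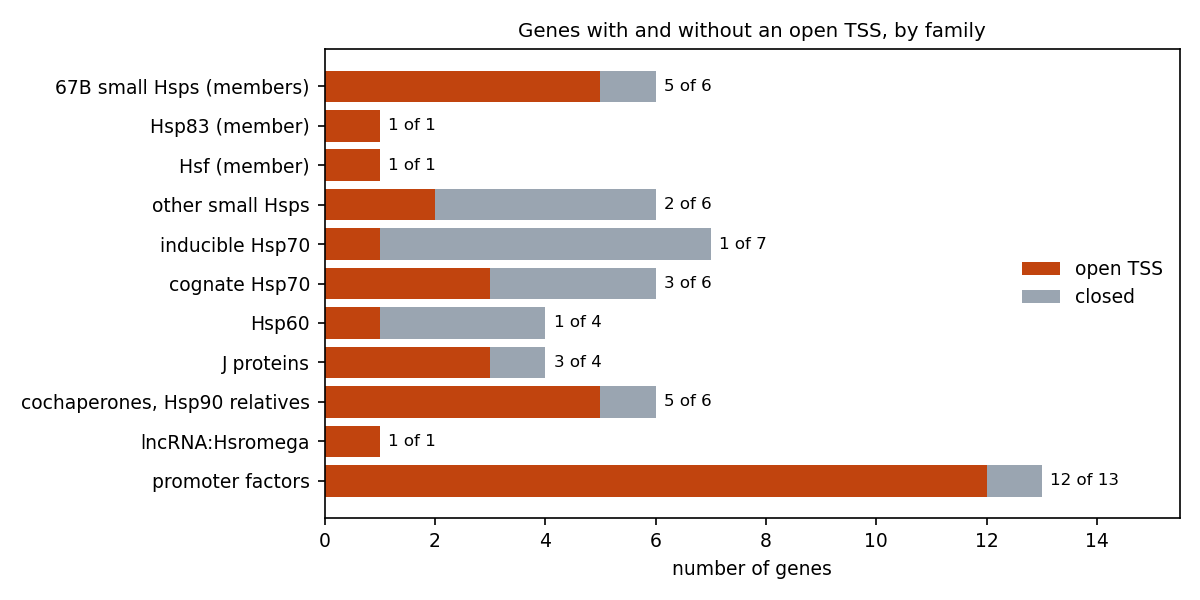
Number of genes with an open TSS and of closed genes (x axis) by family, the members in the 3 upper rows. The 67B small heat shock members were open in 5 of 6 cases, other small heat shock genes in 2 of 6 and inducible Hsp70 genes in 1 of 7. Of all protein-coding genes 47.8% were open. In the 6 closed Hsp70 genes, 0 to 42.1% of the TSS window was unique. Closed there cannot be told apart from sequence that could not be read. CG4456 and CG4461, counted among the other small heat shock genes, also lie in the 67B cluster. CG4456 was open through the 495-bp region it shares with Hsp22 and Hsp67Bc.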

How the data were processed

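ATAC-seq libraries of basal Kc167 cells were used (1 group of 3). The deposited values are chromosome positions of open regions in 1 combined list, with no score or read number. Per the submitters' notes and the study's methods, reads were mapped by the authors to dm6 (no scaffolds) with Bowtie 1.2.2 and kept where they aligned once. They then offset reads by +4 and -5 bp, extended them by 5 bp on either side, and called regions per library with MACS2 2.1.1.20160309 (shift -45, extension 100, q threshold 0.01). Regions found in at least 2 of 3 libraries were joined. Such an offset suits transposase cuts.

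Positions, counted from 1, were compared with the Ensembl release 115 annotation (BDGP6, version 54), and sequence was read from the RefSeq Release 6 genome. A region counted when it overlapped a TSS window (250 bp on either side) by at least 1 bp. Uniqueness is the share of bases in the TSS window at which a 50-base word found once in the genome starts. Wilson intervals (95%) account for counting error alone, and no p was given, since neither genes nor regions are replicates. Overlap and motif steps were tested on simulated data. Python 3.11.15, numpy 2.4.6, scipy 1.17.1 and matplotlib 3.10.9 were used.

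The members and lists were chosen with earlier results of these data known. All 8 members and all genes of the cluster are named, and of each other list the 3 genes with the widest TSS region and up to 3 closed genes, first by alphabet. Further genes were named to account for the families. Alternatives were other windows, overlaps, minimum widths, TSS choices and motif definitions.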

Additional observations from a re-analysis of the deposited data

How the results depend on the processing

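The list combines the libraries and gives no signal, so no replicate could be left out. No paired analysis was possible because the result comes from 1 list and no test. The count of open members stayed at 7 of 8 with windows of 100 or 500 bp, with the most upstream TSS only, with regions of at least 200 bp, with an overlap of at least 50 bp and with unique windows only. It was 8 when a region anywhere from 2 kb upstream to the gene end counted, where Hsp67Ba gained the upstream region of Hsp26 and 59.8% of all protein-coding genes were open, and 5 when the TSS base had to be inside. Of all protein-coding genes, 45.0% were open with windows of 100 bp and 50.4% with 500 bp. The share was 45.1% with the most upstream TSS only, 47.1% with an overlap of at least 50 bp and 43.3% at the TSS base. With regions of at least 200 bp 4313 protein-coding genes were open (30.9%) in place of 6670, and the cluster kept 5 of 8 regions. Members with a heat shock element numbered 0 as first defined, 1 with a window from 500 bp upstream (Hsp23, against 0.981% of genes), 5 with 2 units (against 19.9%) and 4 with 1 mismatch. Members with GAGAG numbered 3, and 6 with the window from 500 bp upstream (against 50.2%). With the most upstream TSS only, 3 members had a TATA element, against 6.99% of genes. The measures at the TSS base, of the last open base, of the TATA element and of elements with 1 mismatch inside regions were chosen after seeing the data.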
